A study of Mus musculus with 4 samples.

Results

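Ebf1, Ebf2 and Ebf3 encode early B-cell factors, transcription factors of the helix-loop-helix family named for the role of Ebf1 in B lymphocytes. They were taken as 3 rows of the 32286 genes in each count matrix and followed over cell types and over both genotypes. The cerebella were of E15.5 mouse embryos, and their cells with tdTomato signal were sorted and profiled by droplet single-cell RNA-seq. Control embryos were Ptf1aCre/+; R26LSL-tdT/+, and En1/2 CKO embryos were Ptf1aCre/+; En1lox/lox, En2lox/lox; R26LSL-tdT/+, so that both genotypes carried 1 Cre allele at Ptf1a and the reporter, and only the mutants carried the floxed alleles of the Engrailed genes. There were 2 libraries per genotype, and every library came from pooled embryos; recombination is limited to the lineage in which Ptf1a-Cre is active. The question the comparison of genotypes addresses is how the loss of Engrailed function bears on young Purkinje cells and interneurons. P-values measure the spread between these pools. The number of embryos in a pool was not given in the sources used here.

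Ebf proteins bind DNA as dimers and are used again and again in animal development when cells leave the cycle and begin to differentiate. In the mouse cerebellum Ebf2 is known for its part in the migration, survival and subtype identity of Purkinje cells, the inhibitory output neurons of the cortex. Zfp423 and Zfp521 encode zinc-finger proteins that bind Ebf proteins and modify their activity. Ebf1 lies on chromosome 11 (44617317 to 45008091, plus strand), Ebf2 on chromosome 14 (67233292 to 67430918, plus strand) and Ebf3 on chromosome 7 (137193673 to 137314445, minus strand) in the GENCODE annotation of GRCm38. None of them shares a chromosome with En1 on chromosome 1 or En2 on chromosome 5. The counts are of 3' tags and do not tell isoforms apart.

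The 250 bases before a RefSeq start are shown for Ebf1 and Ebf3, which differ in base composition. Ebf2 had no entry among the promoter sequences used here. Capitals mark CANNTG, the E-box bound by proneural helix-loop-helix factors (build GRCm38.p6). The Ebf1 window, chr11:44619978-44620227 on the plus strand, lies in the first intron of the GENCODE gene. Ebf1 has another RefSeq start, covered by its first GENCODE exon, and the window of that start is not shown. The Ebf3 window, chr7:137314446-137314695 on the minus strand, lies just before the GENCODE start.
Ebf1: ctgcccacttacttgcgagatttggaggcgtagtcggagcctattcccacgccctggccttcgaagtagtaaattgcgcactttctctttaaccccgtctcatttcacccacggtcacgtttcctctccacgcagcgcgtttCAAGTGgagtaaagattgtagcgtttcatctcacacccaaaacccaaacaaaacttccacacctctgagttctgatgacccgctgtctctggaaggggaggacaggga
Ebf3: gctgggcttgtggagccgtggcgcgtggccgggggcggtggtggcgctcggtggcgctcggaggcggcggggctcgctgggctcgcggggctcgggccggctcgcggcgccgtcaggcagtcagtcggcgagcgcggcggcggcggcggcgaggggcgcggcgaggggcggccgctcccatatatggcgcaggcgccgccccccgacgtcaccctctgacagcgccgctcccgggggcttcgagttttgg

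The Ebf1 window held 52.0% G or C, against a median of 52.4% over 32851 RefSeq windows of 250 bases. The Ebf3 window held 80.0% G or C, more than 98.8% of those windows, and 43 CG pairs against 14 in the Ebf1 window. CANNTG, the same on both strands, occurred 1 time in the Ebf1 window and not in the Ebf3 window, and 66.2% of all windows held it. This describes the letters only.

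The matrices held between 4619 and 11513 barcodes and between 5305154 and 21021428 UMIs (unique molecular identifiers, the counted molecules) per library. The filters left 9487 and 1134 cells for control replicates 1 and 2, and 4893 and 7300 for the mutant replicates of the same numbers. Control replicate 2 stands apart: 24.6% of its barcodes were kept, against 59.7% to 86.3% in the other libraries, and its median mitochondrial share over all barcodes was 13.4%, against 3.15% to 5.88%. Control replicate 1 stands apart in Malat1, a nuclear RNA, with 84893 CPM (UMIs scaled to a total of 1000000 per sum) over all cells, against 31463 to 33604 CPM in the other 3 libraries. Between 10 and 32 barcodes were shared by any pair of libraries, at most 0.346% of the smaller library. In newborn neuron-like cells En2 was 90.2 and 46.9 CPM in the controls and 26.8 and 17.7 CPM in the mutants. It was lower in the mutants, with log2 fold changes by edgeR of -1.79 (standard error, SE, 0.32) there, -2.17 (SE 0.37) in the progenitor-like, -1.86 (SE 0.27) in the interneuron-like and -0.92 (SE 0.39) in the Purkinje-like class, none past the adjusted threshold. En1 gave 0.02 in Purkinje-like cells (SE 0.33) and 0.46 in newborn neuron-like cells (SE 0.27), and 3' tags outside the deleted part of a gene check nothing.

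The cells formed 20 clusters, built without the Ebf genes and named only from marker lists that hold none of them. Clusters 8 and 14 were Purkinje-like. Cluster 8 was led by Nrgn, Islr2 and Nrp2 and cluster 14 by Fgf3, Cntn5 and Nefl, and each raised 8 of the Purkinje markers. Clusters 0, 1 and 2 were GABAergic interneuron-like, led by Robo3, by Igfbp5 and Sez6, and by Neurod1 and Bhlhe22 in that order. Cluster 0 raised 6 of 8 interneuron markers and also 5 of 9 newborn neuron markers. At Leiden resolution 2 a cluster of 1279 cells was named newborn neuron-like, with March1, Igfbpl1, Miat and Dcc leading it as they led cluster 0. The newborn neuron-like class of control replicate 1 then held 1535 cells, against 842 at resolution 1. Cluster 10 was newborn neuron-like and led by Neurog1, and clusters 12 (Ptf1a intermediate progenitor-like) and 4 (radial progenitor-like) were joined as progenitor-like cells. Purkinje-like cells numbered 942 and 27 in controls and 435 and 444 in mutants, so that control replicate 2 weighs little on them, with 7 cells in cluster 8 and 20 in cluster 14. Microglia-like cluster 15, a type that should lack Ebf RNA, serves as the background of free RNA. Its cells held a median of 4083.5 UMIs, against 865 in haemoglobin-led cluster 11, so its level need not hold for shallower cells.

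Ebf1 was detected in neurons and their precursors of several kinds and its highest mean lay outside the Purkinje-like clusters. Its mean level over libraries was 3512 ± 1647 CPM in Robo3-led interneuron-like cluster 0 (SD, n = 4 libraries), 2714 ± 1189 CPM in newborn neuron-like cluster 10, 2166 ± 859 CPM in Purkinje-like cluster 8 (n = 3) and 1712 ± 655 CPM in Purkinje-like cluster 14 (n = 4). Cycling cluster 9, which like cluster 0 also raised newborn neuron markers, followed with 1507 ± 794 CPM and Ptf1a intermediate progenitor-like cluster 12 with 967 ± 566 CPM. Igfbp5-led and Neurod1-led interneuron-like clusters 1 and 2 stood at 639.5 ± 108 and 937.5 ± 531 CPM, and radial progenitor-like cluster 4 at 123 ± 56.7 CPM. Microglia-like cluster 15 was lowest with 58.7 ± 38.9 CPM.

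Among neighbours in that order, a difference had the same sign in every library with at least 20 cells of both clusters for cluster 8 over 14 (3 of 3 libraries), 9 over 12 (4 of 4), 1 over 13 (4 of 4), 6 over 4 (4 of 4) and 5 over 15 (4 of 4). Cluster 2 lay below 16, and 11 below 3, in each of the 3 libraries compared, against the order of their means, which for clusters 2 and 11 include control replicate 2. Clusters 0, 10 and 8 could not be ordered beyond their spread. Ebf1 in control replicate 2 was 5937 CPM in cluster 0, against 2261 to 2960 CPM in the other 3 libraries. Fibroblast-like cluster 16, which also raised all 7 mural markers, held 895 ± 148 CPM of Ebf1 in 3 libraries and lay above cluster 11 in each of them. That cluster had no Ebf2 UMI in these libraries and 12.9 ± 12.5 CPM of Ebf3. Haemoglobin-led cluster 11, named erythroid-like, held 780 ± 465 CPM of Ebf1 and 111 ± 23.3 CPM of Ebf3. The part of free RNA in these values was not tested.

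Ebf2 had its highest level in 1 of the 2 Purkinje-like clusters. In cluster 8 it stood at 309.8 CPM in control replicate 1 and at 288 and 215 CPM in En1/2 CKO replicates 1 and 2. In Purkinje-like cluster 14 the values were 99.8 and 17.5 CPM in the controls and 105 and 34.7 CPM in the mutants, where the 17.5 CPM are 1 UMI and below the level of 3 counts, 52.5 CPM. The lowest value of cluster 8, 215 CPM, was above the highest of any other cluster, 105 CPM. The next by mean was newborn neuron-like cluster 10 with 69.6 ± 9.70 CPM (n = 4 libraries). Clusters 2, 14, 9, 12, 3, 0 and 1 followed, from 69.3 down to 31.9 CPM, and among these neighbours cluster 0 lay above cluster 1 in 4 of 4 libraries. Cluster 12 lay below cluster 3 in each of the 3 libraries compared, against the order of their means, which for cluster 12 includes control replicate 2. The other pairs varied in sign. Radial progenitor-like cluster 4, astroglia-like clusters 6 and 7 and microglia-like cluster 15 held 3.33 to 11.3 CPM of Ebf2.

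Ebf3 marked both Purkinje-like clusters. It stood at 427 ± 30.04 CPM in cluster 8 (n = 3 libraries) and 332 ± 28.5 CPM in cluster 14 (n = 4), and cluster 8 was above 14, and 14 above interneuron-like cluster 0, in every library compared. The 3 interneuron-like clusters held 219 ± 38.8, 208 ± 32.4 and 163 ± 40.2 CPM and newborn neuron-like cluster 10 held 165 ± 22.8 CPM, and neighbours in this order were not separated beyond their spread. Granule lineage-like cluster 13 held 84.0 ± 16.5 CPM and astroglia-like cluster 6 held 34.2 ± 17.6 CPM, the former higher in 4 of 4 libraries. Microglia-like cluster 15 held 14.5 ± 10.8 CPM. Ebf4, the fourth family member, did not exceed a mean of 12.1 CPM in a cluster, which it reached in radial progenitor-like cluster 4.

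**Figure D1:**
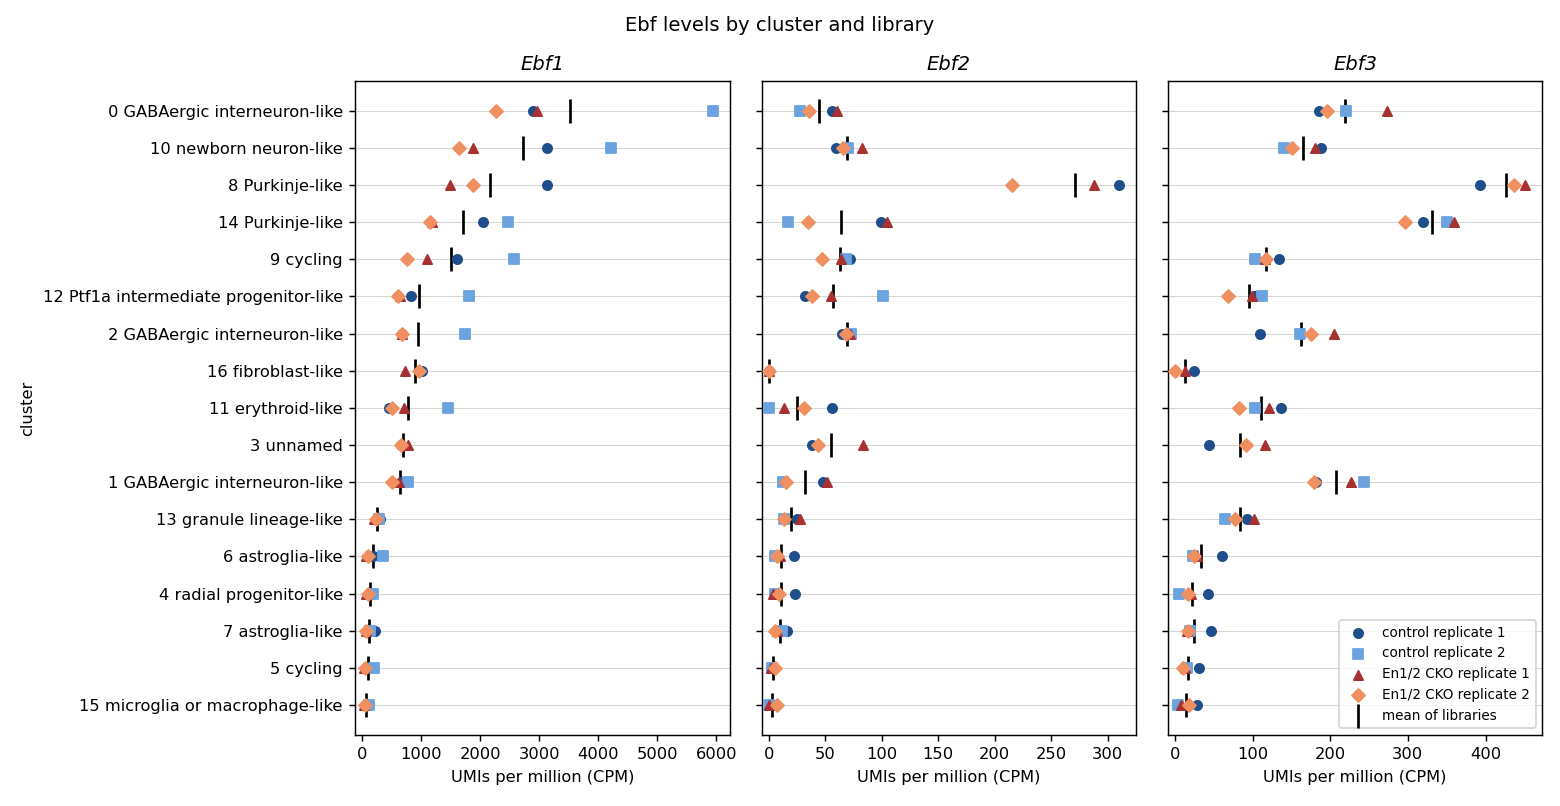
Level of Ebf1, Ebf2 and Ebf3 (x axes, CPM) in each cluster with at least 20 cells in 3 or 4 libraries (y axis, ordered by mean Ebf1), with 1 symbol per library and a bar at the mean. Ebf1 is highest in interneuron-like cluster 0 at 3512 CPM, whereas Ebf2 at 271 CPM and Ebf3 at 427 CPM are highest in Purkinje-like cluster 8.

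The share of each gene's molecules that lay in Purkinje-like cells differed between genes and libraries. In control replicate 1, cluster 8 held 31.9% of the Ebf2 UMIs, 15.52% of those of Ebf3 and 14.5% of those of Ebf1. In En1/2 CKO replicate 1 the shares were 23.8%, 15.3% and 9.22%, and in En1/2 CKO replicate 2 they were 14.5%, 10.1% and 6.83%. Cluster 8 made up at most 6.01% of the cells of a library. In control replicate 2, with 27 Purkinje-like cells in both clusters together, the order was another: they held 9.91% of the Ebf3, 4.65% of the Ebf1 and 2.15% of the Ebf2 UMIs, the last being 2 UMIs. Most Ebf2 UMIs lay outside cluster 8 in every library. Newborn neuron-like cluster 10 held 8.08% and 16.1% of them in the controls and 22.4% and 22.8% in the mutants. Interneuron-like cluster 2 held 1.64% and 25.8% in the controls and 17.6% and 18.3% in the mutants, which overlap. Its share of the cells also differed between libraries, at 0.907% and 11.9% in the controls and 8.42% and 4.29% in the mutants. UMI counts of 3' tags are not divided by length, so the ratio of one gene to another is given only to compare cell types. Ebf1 UMIs per Ebf3 UMI lay between 10.4 and 29.9 over the 4 libraries in newborn neuron-like cells and between 3.30 and 7.43 in Purkinje-like cells, ranges that do not overlap. Ebf1 UMIs per Ebf2 UMI lay between 5.17 and 10.1 in cluster 8 and between 49.3 and 63.2 in cluster 0, each over 3 libraries.

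Levels were also taken in cells picked by a UMI of a marker gene, with no clusters involved. Cells with a UMI of Skor2, a nuclear co-regulator specific to Purkinje cells, numbered 31 in control replicate 1 and held 3757 CPM of Ebf1, 420 CPM of Ebf2 and 380 CPM of Ebf3. The other libraries had at most 15 such cells and were left out. Cells with a UMI of Calb1, a calcium buffer of Purkinje cells, numbered 83 in control replicate 1 and 35 and 62 in the mutants, with 8 in control replicate 2, which was left out. They held, in that order, 1819, 1009 and 742 CPM of Ebf1, 63.0, 181 and 64.5 CPM of Ebf2 and 231, 267 and 230.4 CPM of Ebf3. Cells with a UMI of Pax2, which marks inhibitory interneuron precursors, held 1492 and 2007 CPM of Ebf1 in the controls and 1086 and 881 CPM in the mutants. Their Ebf2 was 49.2 to 73.2 CPM over the 4 libraries. Cells with a UMI of Neurog1, a proneural factor, held 1821 and 2683 CPM of Ebf1 in the controls and 1414 and 1093 CPM in the mutants. In cells with a UMI of Sox9, a factor of radial glia, Ebf1 was 571 and 293 CPM in the controls and 126 and 151 CPM in the mutants. In each of the Pax2, Neurog1 and Sox9 groups both mutants were below both controls. The same held in cells with a UMI of Atoh1 (granule lineage), Pdgfrb (on the mural list) or Cx3cr1 (microglia), the last with 115 and 119 against 65.5 and 96.7 CPM. Cells with Pdgfrb need not be mural, since it was among the leading genes of an unnamed, Hs3st1-led cluster of 971 cells at Leiden resolution 2. In En1/2 CKO replicate 2, 338 cells with Pdgfrb held 143 CPM of Ebf1. The 30 cells with Rgs5, another mural marker, held 839 CPM there. Genotypes overlapped in cells with a UMI of C1qa (microglia) or Hba-a1 (haemoglobin), the latter through control replicate 2 with 30 cells at 474 CPM. They did not overlap in cells with a UMI of Hbb-bs, another haemoglobin gene. There Ebf1 was 1225 and 1171 CPM in the controls and 606 and 572 CPM in the mutants. The share of all genes below in this way was not computed for these groups.

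Cells were thinned to 1000 UMIs to compare the share with an Ebf UMI, and 2597 and 158 control cells and 1148 and 3064 mutant cells with fewer UMIs were left out. Before thinning, the median depth of the remaining cells was 1325 to 3641 UMIs per library. An Ebf1 UMI was then found in 92.1% and 96.5% of the controls' newborn neuron-like cells and in 83.6% and 76.8% of the mutants'. In Purkinje-like cells the shares were 75.0% and 68.2% against 55.3% and 54.7%, in interneuron-like cells 57.2% and 62.4% against 49.0% and 52.2%, and in progenitor-like cells 27.7% and 35.2% against 21.8% and 19.3%. In microglia-like cluster 15, whose cells before thinning had a median of 3444 to 5587 UMIs, the shares were 6.17% and 6.45% against 5.08% and 5.67%. Mutants were below controls in each of these 5 groups, and the exact permutation test of libraries (two-sided) gave 0.333 each time, which is the smallest p that 2 against 2 libraries allow. In cluster 15 the shares rest on 5 of 81 and 4 of 62 control cells and 3 of 59 and 8 of 141 mutant cells. The 68.2% of Purkinje-like cells in control replicate 2 are 15 of 22 cells. The share of all genes below in this way was not computed for thinned cells.

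Unthinned, the mean Ebf1 share over libraries was 96.7% in newborn neuron-like and 68.1% in interneuron-like cells. Ebf2 UMIs were found in 26.1%, 22.2% and 18.8% of the thinned cells of Purkinje-like cluster 8 in control replicate 1 and the mutants, and in 8.72%, 8.25% and 3.90% of those of cluster 14. In microglia-like cluster 15 an Ebf2 UMI was found in 0 of 81, 0 of 62 and 0 of 59 cells, with exact 95% upper bounds of 4.45%, 5.78% and 6.06%, and in 0.709% of 141 cells of En1/2 CKO replicate 2. Ebf3 UMIs were found in 29.0% and 36.4% of Purkinje-like cells in the controls and in 32.1% and 30.7% in the mutants. In cells of microglia-like cluster 15 they were found in 0% to 2.47%. In microglia-like cluster 17 they were found in 9 of 149 cells of En1/2 CKO replicate 2, Ebf2 UMIs in 5 and Ebf1 UMIs in 44. In cluster 15 of the same library Ebf1 UMIs were found in 8 of 141 cells, so the 2 microglia-like clusters differ in their Ebf1 background. Exact Clopper-Pearson 95% intervals cover counting error only.

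**Figure D2:**
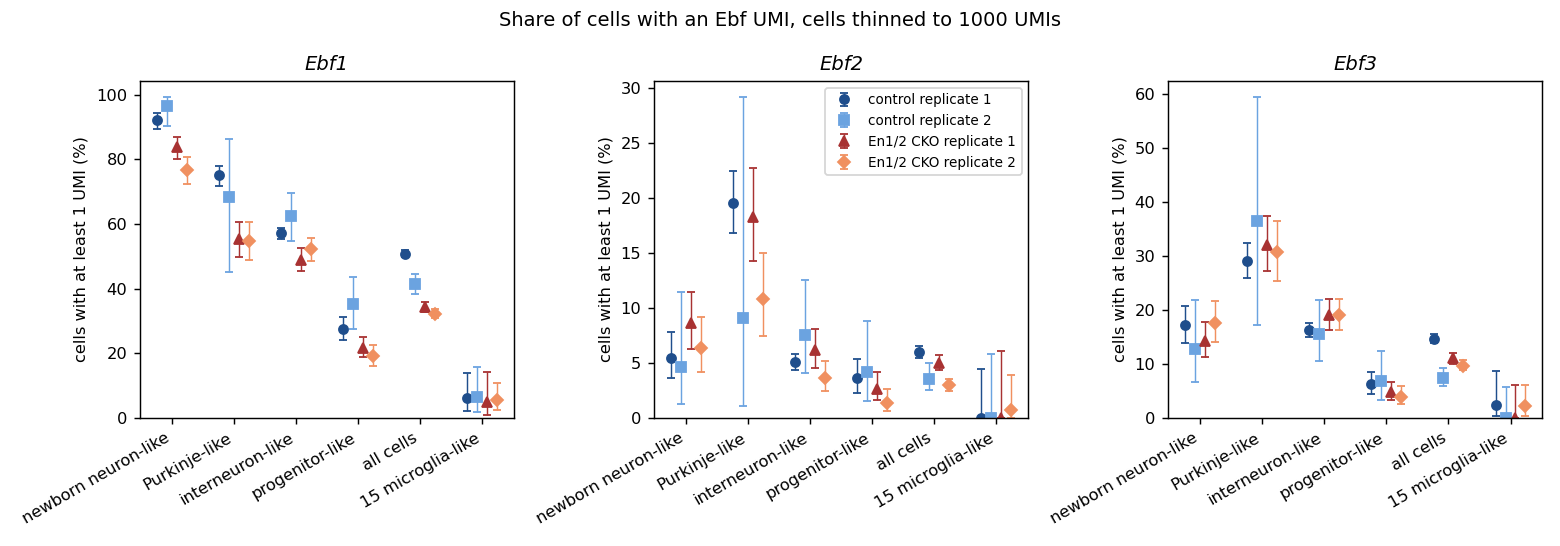
Share of cells with at least 1 UMI of Ebf1, Ebf2 and Ebf3 (y axes, percent) in cells thinned to 1000 UMIs, by class (x axes) and library (symbols), with exact Clopper-Pearson 95% intervals as bars. For Ebf1 the mutant libraries lie below both controls in each class, for example at 83.6% and 76.8% against 92.1% and 96.5% in newborn neuron-like cells, while Ebf3 overlaps between genotypes in Purkinje-like cells.

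Within the thinned cells of cluster 8, cells with an Ebf2 UMI also held an Ebf1 UMI in 85.8% of 127 cells in control replicate 1, against 75.5% of the cells without Ebf2. The pairs of shares were 55.6% and 51.9% in En1/2 CKO replicate 1 and 68.0% and 56.5% in En1/2 CKO replicate 2. Ebf2 was found in 31.9% of the cells with Ebf3 and 23.8% of those without in control replicate 1. These shares were 28.4% and 19.1% for the first mutant library and 16.3% and 20.2% for the second. Ebf1 was found more often beside Ebf2 in each of these 3 libraries, while the order for Ebf2 and Ebf3 differed between libraries. These shares describe sparse counts and were not tested.

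Ebf1 was lower in the En1/2 CKO libraries than in both controls in every class, and Ebf2 and Ebf3 were not. In newborn neuron-like cells Ebf1 stood at 3127 and 4208 CPM in the controls and at 1881 and 1642 CPM in the mutants. Both mutants were below both controls, a log2 fold change of -1.08 (SE 0.30) with an unadjusted p of 0.0053 and an adjusted p of 0.525 by edgeR. In this class 17.7% of the 9491 genes tested had both mutants below both controls, and 0 genes passed the adjusted threshold of 0.05 with edgeR (0%). At unadjusted p under 0.05, 287 genes lay above 0 and 527 below it, and DESeq2 called 0. In progenitor-like cells Ebf1 was 508 and 1002 CPM in the controls and 342.5 and 316 CPM in the mutants, again without overlap (log2 fold change -1.23, SE 0.39, adjusted p 0.911 by edgeR). There 14.7% of genes were below in the same way and 0 of 10619 passed with edgeR (0%), while 208 genes lay above 0 and 299 below it at unadjusted p under 0.05, and DESeq2 called 2. Cluster 12 made up 59.8% and 57.2% of the class in the controls and 47.6% and 41.8% in the mutants, and cluster 4 the rest. Within cluster 12 Ebf1 was 818 and 1805 CPM against 638 and 608 CPM (log2 fold change -1.11, SE 0.43), and within cluster 4 it was 163 and 176 CPM against 54.9 and 98.2 CPM (-1.17, SE 0.36).

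In interneuron-like cells Ebf1 was 1562 and 1909 CPM in the controls and 1016 and 1049 CPM in the mutants (log2 fold change -0.80, SE 0.29, unadjusted p 0.029, adjusted p 1 by edgeR). The background was 13.1% of genes with both mutants below both controls, and 0 of 10711 genes passed with edgeR (0%), while 172 genes lay above 0 and 208 below it at unadjusted p under 0.05, and DESeq2 called 3. The makeup of this class differed between libraries: Neurod1-led cluster 2 made up 1.97% of it in control replicate 1, 64.6% in control replicate 2, and 37.4% and 21.9% in the mutants. Within cluster 0 the Ebf1 values overlapped, with 2888 and 5937 CPM in the controls and 2960 and 2261 CPM in the mutants. In cluster 1 they were 655.5 and 769.9 against 625 and 507 CPM, and in cluster 2 they were 675 and 1734 against 670.4 and 670.9 CPM.

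In Purkinje-like cells Ebf1 was 2705 and 2276 CPM in the controls and 1398 and 1453 CPM in the mutants. The log2 fold change was -0.78 (SE 0.32, unadjusted p 0.029, adjusted p 1 by edgeR), and 13.1% of genes had both mutants below both controls. Of 8960 genes tested, 2 passed (0.0223%), both higher in the mutants. In cluster 14 alone Ebf1 was 2050 and 2469 CPM against 1182 and 1149 CPM (log2 fold change -0.96, SE 0.49), and in cluster 8 it was 3131 CPM in control replicate 1 against 1487 and 1879 CPM. Over all cells Ebf1 was 1329 and 1205 CPM against 614 and 567 CPM (log2 fold change -1.18, SE 0.24, unadjusted p 0.0042), and 11.9% of genes were below in this way. The makeup of all cells differed between libraries: cluster 0 was 20.3% of control replicate 1 and 2.65% to 8.77% of the others, cluster 9 was 7.76% of control replicate 2 and 0.896% to 1.47% of the others, and cluster 11 was 16.1% of En1/2 CKO replicate 2 and 0.940% to 3.77% of the others. Its part in this value was not tested. Of 14746 genes 0 passed there with edgeR (0%), while 415 genes lay above 0 and 272 below it at unadjusted p under 0.05, and DESeq2 called 48. The adjusted p of Ebf1 over all cells was 0.952 with edgeR and 0.0624 with DESeq2.

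Ebf1 passed the threshold when either control was left out. Without control replicate 1 its log2 fold change was -1.31 in newborn neuron-like, -1.68 in progenitor-like, -0.98 in interneuron-like, -0.60 in Purkinje-like and -1.13 in all cells, and without control replicate 2 it was -0.77, -0.60, -0.59, -0.94 and -1.21 in the same order. Each of these fits passed with edgeR, with adjusted p from 2.51e-17 to 0.0379, but a fit with 1 control assumes that it varies as little as the mutants do, and such fits called 211 to 1667 genes. Without the filter on low counts Ebf1 in newborn neuron-like cells gave -1.004 with an adjusted p of 0.0231 by edgeR, beside 79 genes called. Malat1 in newborn neuron-like cells was 84742 and 32506 CPM in the controls and 29276 and 29225 CPM in the mutants. Any relation between the Malat1 and Ebf1 levels of the libraries was not tested.

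**Figure D3:**
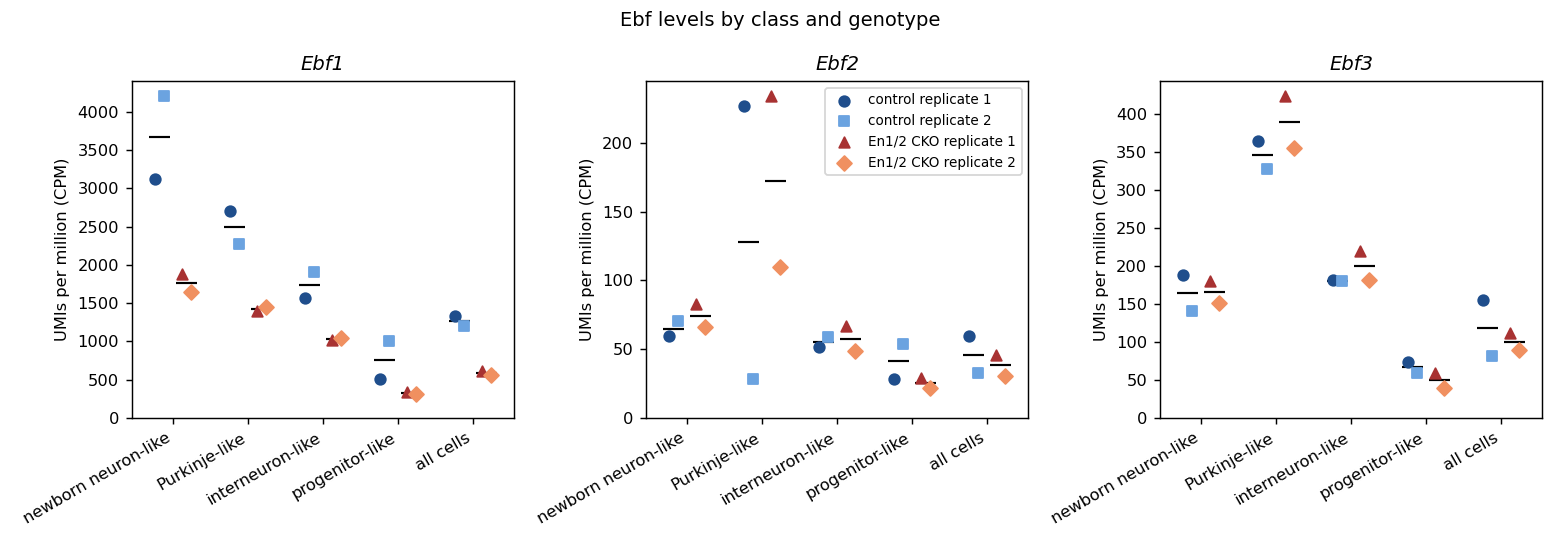
Level of Ebf1, Ebf2 and Ebf3 (y axes, CPM) in each class and over all cells (x axes), with 1 symbol per library and a bar at the mean of each genotype. Ebf1 in both mutant libraries lies below both controls in each class, for example at 1398 and 1453 CPM against 2705 and 2276 CPM in Purkinje-like cells, and Ebf2 and Ebf3 overlap between genotypes there.

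Ebf2 in Purkinje-like cells was 227 and 28.5 CPM in the controls and 234 and 110 CPM in the mutants. The 28.5 CPM of control replicate 2 are 2 UMIs and below its level of 3 counts, 42.7 CPM. The log2 fold change was 0.03 (SE 0.52, adjusted p 1 by edgeR). It turned on 1 library, at -0.40 without control replicate 2 and at 2.67 without control replicate 1, where the adjusted p of edgeR was 0.0171 and the remaining control held those 2 UMIs. In interneuron-like cells Ebf2 was 51.6 and 58.5 CPM against 66.8 and 48.8 CPM (0.06, SE 0.27), and in newborn neuron-like cells 59.5 and 70.3 CPM against 82.6 and 66.2 CPM (0.27, SE 0.26), with overlapping genotypes in both classes. In progenitor-like cells the values were 28.2 and 54.2 CPM against 29.2 and 21.6 CPM (-0.55, SE 0.40).

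Ebf3 in Purkinje-like cells was 364 and 327 CPM in the controls and 424 and 355 CPM in the mutants, which overlap (log2 fold change 0.18, SE 0.33, adjusted p 1 by edgeR). In newborn neuron-like cells it was 188 and 141 CPM against 180.3 and 151 CPM (-0.03, SE 0.25). In interneuron-like cells the controls were 181 and 180.1 CPM and the mutants 219 and 181.1 CPM, which leaves the mutants barely above the controls (0.11, SE 0.23), and 18.2% of genes in that class had both mutants above both controls. In progenitor-like cells Ebf3 was 73.6 and 59.6 CPM against 59.8 and 38.9 CPM (-0.48, SE 0.30).

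The genotype difference was compared between Purkinje-like and interneuron-like cells by an interaction test in edgeR with the library as a block. The difference of log2 fold changes, Purkinje-like minus interneuron-like, was 0.00 for Ebf1 (SE 0.20, adjusted p 1), -0.34 for Ebf2 (SE 0.25, adjusted p 0.999) and 0.05 for Ebf3 (SE 0.23, adjusted p 0.999). The SE gives the precision, and a p that misses the threshold does not show equal effects. Of 10081 genes, 20 passed this test (0.198%).

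Across the 14 clusters with at least 20 cells in every library, fitted alone after the data had been seen, the Ebf1 log2 fold change was below 0 in 14 of 14, from -1.87 to -0.35 with a median of -1.02. The unadjusted p of edgeR was under 0.05 in 8 of them and the adjusted p in 0. Of the 2969 genes tested in all 14 clusters, 104 had a log2 fold change below 0 in every cluster (3.5%). Both mutants were below both controls for Ebf1 in 11 of 14 clusters, against 11.8% to 17.7% of genes in any given cluster. Of the 2969 genes, 19 were below in at least 11 clusters (0.64%). The clusters share their libraries, so they are not independent repeats.

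The lowest Ebf1 values were -1.87 in cycling cluster 5 (SE 0.43), -1.70 in astroglia-like cluster 7 (SE 0.35) and -1.69 in astroglia-like cluster 6 (SE 0.41), all clusters with little Ebf1. Microglia-like cluster 15, the background type, gave -0.93 (SE 0.51), with 45.4 and 115 CPM in the controls and 25.9 and 48.3 CPM in the mutants, which overlap. Over all cells Ebf1 was also lower in the mutants, and the part of free RNA in the clusters low in Ebf1 was not tested. Ebf2 was below 0 in 8 of the 10 clusters in which it was tested (median -0.32) and Ebf3 in 10 of 13 (median -0.04). Both mutants were below both controls in 2 of 14 clusters for Ebf2 and in 3 for Ebf3, and above in 0 and 1, against 15.3% to 20.9% of genes above in any given cluster.

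**Figure D4:**
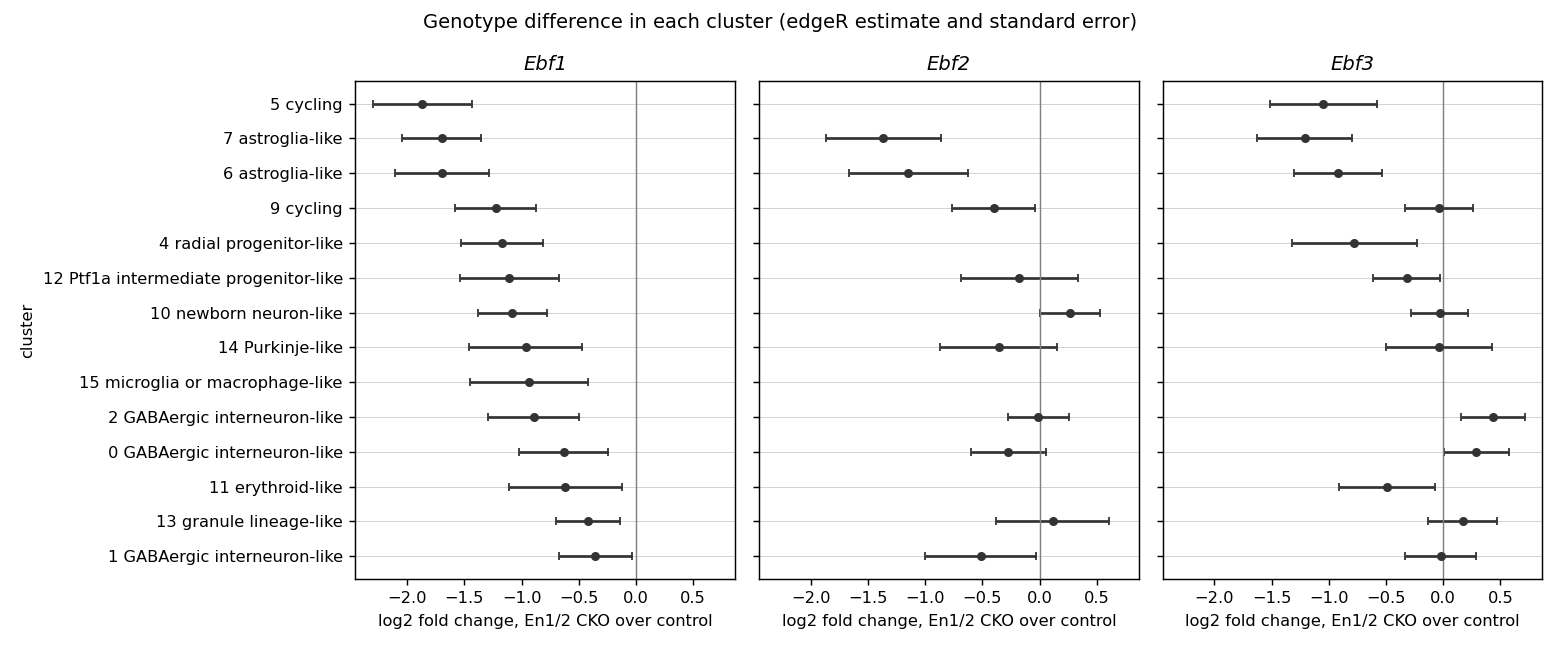
Log2 fold change of En1/2 CKO over control (x axes) with its standard error as a bar for Ebf1, Ebf2 and Ebf3, fitted by edgeR in each cluster with at least 20 cells in every library (y axis); genes under the count filter in a cluster have no point. All 14 Ebf1 values lie below 0, between -1.87 and -0.35, whereas Ebf3 has values on both sides.

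The 19 genes below in at least 11 clusters, named here after their values were seen, included Ebf1, Tmem14c, AA465934, Tmsb10, Gm8797, AC149090.1, Gm47283 and BC004004. Tmem14c, a mitochondrial membrane protein of haem synthesis, had a median log2 fold change of -1.72 over the 14 clusters and was below in 14. Tmsb10, a small actin-binding protein, had -0.98 and was below in 13. Ebf1 had -1.02, and whether they share a source with Ebf1 was not tested.

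Genes with the pattern most like each Ebf gene were ranked by Pearson's r of log2(CPM + 10) over 14 clusters among 10394 genes. For Ebf1 they were Chgb (r = 0.96), which encodes a secretory granule protein, Tulp4 (0.95), the long non-coding RNA Rmst (0.94), Scrt2 (0.94), a zinc-finger repressor of newly formed neurons, and Ackr1 (0.94), a chemokine receptor that does not signal through G proteins. Chgb had its highest mean of these 14 clusters in cluster 0, at 362 CPM, and stood at 416.5 CPM in cluster 8, which is not among them. For Ebf2 they were Elavl3 (0.96), a neuronal RNA-binding protein, Sox4 (0.95), a factor of young neurons, Dynlt1a (0.95), Ubxn2a (0.95) and Nap1l2 (0.94). For Ebf3 they were Serpini1 (0.98), the protease inhibitor neuroserpin, Pak7 (0.97), Chmp7 (0.97), Sbk1 (0.97) and Crmp1 (0.96), a mediator of semaphorin signalling.

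The Ebf genes were also like each other, with r = 0.93 for Ebf1 and Ebf2, 0.92 for Ebf1 and Ebf3 and 0.89 for Ebf2 and Ebf3 over the same 14 clusters. Cluster 8 is not among these because control replicate 2 had 7 cells of it. With clusters held by 3 or 4 libraries (17 clusters, chosen after the data were seen), Ebf3 became the gene most like Ebf2 (r = 0.90), and r was 0.75 for Ebf1 and Ebf2 and 0.81 for Ebf1 and Ebf3. These coefficients describe clusters that share 4 libraries.

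Of the genes listed as partners or neighbours of the Ebf factors in these lineages, 0 passed the edgeR threshold in the 4 classes or over all cells. Zfp423 was 50.5 and 114 CPM in the controls and 74.2 and 41.7 CPM in the mutants in Purkinje-like cells (log2 fold change -0.01, SE 0.43). In interneuron-like cells its log2 fold change was -0.14 (SE 0.34). Zfp521 was 8.90 and 28.5 CPM against 22.4 and 20.2 CPM in Purkinje-like cells (1.04, SE 0.56, adjusted p 1 by edgeR). Its 28.5 CPM in control replicate 2 are below the level of 3 counts there, 42.7 CPM.

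Of 12 proneural and early neuronal bHLH factors, 11 were tested in newborn neuron-like cells and 0 passed with edgeR. Their log2 fold changes were above 0 for 7 and below 0 for 4, with a median of 0.15 against -0.04 over all genes. Neurog1 gave 0.24 (SE 0.25), Neurog2 -0.03 (SE 0.26) and Ptf1a 0.58 (SE 0.27). These proneural factors drive entry into the neuronal lineage, and Ebf1 gave -1.08 in the same cells. Neurog1 was 282 and 220 CPM in the controls and 310.0 and 292 CPM in the mutants.

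In Purkinje-like cells 13 of 14 Purkinje transcription factors were tested and 0 passed, 5 above and 8 below 0 (median -0.19 against 0.00 over all genes). Foxp2, a forkhead factor of Purkinje cells, was 680.4 and 1508 CPM in the controls and 786 and 644.5 CPM in the mutants (log2 fold change -0.52, SE 0.39). Skor2 gave -0.36 (SE 0.56), Lhx5 0.13 (SE 0.46) and Lhx1 -0.19 (SE 0.46), the last pair being LIM homeodomain factors of Purkinje cells. Of 12 Purkinje differentiation genes 10 were tested and 0 passed, 1 above and 9 below 0 (median -0.59). Calb1 gave 0.58 (SE 0.50), Pcp4 -0.92 (SE 0.81), Car8 -0.52 (SE 0.66) and Dab1 -0.84 (SE 0.43). Pcp4 was 78.6 and 726 CPM in the controls and 70.7 and 249 CPM in the mutants, a wide spread within each genotype.

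Of 15 genes with a known pattern among Purkinje subsets, 12 were tested in Purkinje-like cells and 0 passed, 2 above and 10 below 0 (median -0.54). Aldoc, the zebrin antigen, gave -0.26 (SE 0.43), Plcb4 -0.71 (SE 0.33), Epha4 -0.74 (SE 0.45) and Nrgn 2.08 (SE 0.60, unadjusted p 0.0043, adjusted p 1 by edgeR). Nrgn, which leads cluster 8 where Ebf2 is highest, was 191 and 14.2 CPM in the controls and 832 and 335 CPM in the mutants. The 14.2 CPM of control replicate 2 are below its level of 3 counts, 42.7 CPM, and cluster 8 made up 25.9% of the Purkinje-like cells of that library against 60.3% in control replicate 1 and 67.6% and 51.6% in the mutants. The part of this makeup in the value was not tested. Ebf2 and Ebf3 gave 0.03 and 0.18 in the same cells on the log2 scale. Of 16 reelin signalling and migration genes 15 were tested and 0 passed, 5 above and 10 below 0 (median -0.11), with Reln at 0.08 (SE 0.47), Vldlr at -0.66 (SE 0.53) and Lrp8 at -0.24 (SE 0.35).

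In interneuron-like cells 6 of 8 interneuron factors were tested and 0 passed, 3 above and 3 below 0 (median -0.01 against -0.04 over all genes). Pax2 gave 0.05 (SE 0.31), Tfap2b -0.04 (SE 0.25), Tfap2a -0.20 (SE 0.35) and Slc6a5, the neuronal glycine transporter, 0.09 (SE 0.24). These genes define the class in part, so their levels in it are a description. Tfap2b was 788 and 732 CPM in the controls and 772 and 748 CPM in the mutants, closer together than the Ebf1 values of the same cells.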

How the data were processed

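Single-cell RNA-seq of tdTomato-positive cells from 2 control and 2 En1/2 CKO pools was analysed from the authors' deposited matrices of raw UMI counts, made with Cell Ranger 6.1.0 on mm10 per the submitters' processing notes. The other deposited files, per the file headers, hold barcodes and gene names as text. Whether intron reads were counted is not given in the sources used here.

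Barcodes under 500 genes or over 10% mitochondrial UMIs were dropped. Scrublet's automatic threshold marked 0% in 3 libraries, so the highest scores, 0.8% per 1000 barcodes, were removed in each library. Clusters (scanpy 1.11.5, 2000 variable genes without the Ebf genes, 30 components, 15 neighbours, Leiden resolution 1, no integration) were named from marker lists, where at least 3 markers were 1.5-fold higher. How markers decide a name was fixed only once clusters had been seen. Members and gene lists were chosen with earlier results of these data known.

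Counts were summed per library and class of at least 20 cells and tested with edgeR 4.0.16 (quasi-likelihood, TMM, filterByExpr, two-sided, Benjamini-Hochberg over all genes tested, threshold 0.05), tested on simulated data. SEs were derived from the F statistic. DESeq2 1.42.0 and other settings were alternatives. Levels are CPM of the summed UMIs. A level of 3 counts was taken as the floor. Shares used cells thinned to 1000 UMIs, exact permutation tests and exact 95% Clopper-Pearson intervals. Depth was 5305154 to 21021428 UMIs per library. Named genes were the Ebf genes, the 5 most like each, both zinc-finger partners, the first 4 tested members of each other list and the targeted genes; 1 of these is not reported here. Sequences came from RefSeq.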

Additional observations from a re-analysis of the deposited data

How the results depend on the processing

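Ebf1 kept a log2 fold change below 0 in every class fit run, with alternatives from -1.20 to -0.67 in newborn neuron-like, -0.89 to -0.74 in Purkinje-like, -1.17 to -0.73 in interneuron-like, -1.46 to -0.82 in progenitor-like and -1.19 to -0.96 in all cells. Leaving out 1 library gave -1.31 to -0.77, -0.94 to -0.60, -0.98 to -0.59, -1.68 to -0.60 and -1.23 to -1.11 in that order, past the threshold without either control. Without the low-count filter Ebf1 passed in newborn neuron-like cells (-1.004, adjusted p 0.0231 by edgeR).

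Ebf2 and Ebf3 estimates near 0 changed sign; the cause was not tested. Ebf2 in newborn neuron-like cells gave -0.053 under the stricter cell filter, -0.011 at 2000 UMIs or more and -0.61 with doublets kept, where that class was a different cluster. Ebf3 there gave 0.043 without the filter, 0.0038 with the replicate block, 0.12 under the stricter cell filter, 0.13 at 2000 UMIs or more, 0.022 at Leiden resolution 2 and -0.14 to 0.18 leaving out 1 library. Ebf2 in Purkinje-like cells gave -0.16 with doublets kept, -0.0051 at resolution 2, -0.36 in cluster 14 alone and -0.47 to 2.67 leaving out 1 library. Ebf3 gave -0.037 in cluster 14 alone. In interneuron-like cells Ebf2 gave -0.047 at resolution 2, -0.27, -0.51 and -0.010 in clusters 0, 1 and 2 alone and -0.20 to 0.27 leaving out 1 library, and Ebf3 gave -0.021 in cluster 1 alone and -0.035 to 0.25 leaving out 1 library. Over all cells leaving out 1 library gave -0.68 to 0.14 for Ebf2 and -0.68 to 0.21 for Ebf3. The interaction of Ebf1 gave -0.014 with RLE size factors, -0.047 without the filter, -0.17 with doublets kept, -0.10 at resolution 2 and -0.065 with Ebf genes in the clustering, and that of Ebf3 gave -0.024 without the filter and -0.051 with doublets kept.

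Genes called without the filter numbered 79, 17, 29 and 38 in the newborn neuron-like, Purkinje-like, interneuron-like and progenitor-like classes. With DESeq2 it was 3 (interneuron-like), 2 (progenitor-like) and 48 (all cells). Same-numbered replicates share only a number, and the replicate block gave 3 genes in newborn neuron-like, 8 in interneuron-like and 117 in all cells. Leaving out 1 library gave 1 to 1446, 2 to 228, 2 to 1037, 0 to 1416 and 18 to 1667 genes in newborn neuron-like, Purkinje-like, interneuron-like, progenitor-like and all cells.

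Mean levels moved with doublets kept to 56.2 CPM for Ebf2 and 105 CPM for Ebf3 in newborn neuron-like and to 1298 CPM for Ebf1 and 94.5 CPM for Ebf3 in progenitor-like cells, and under the stricter cell filter to 65.2 CPM (Ebf2, interneuron-like) and 38.2 CPM (Ebf3, progenitor-like). Shares rise with depth by construction. Without thinning the mean shares of Ebf1, Ebf2 and Ebf3 were 96.7%, 13.7% and 29.2% in newborn neuron-like, 68.1%, 9.07% and 27.3% in interneuron-like, 35.0%, 5.93% and 10.7% in progenitor-like and 49.7%, 7.53% and 18.4% in all cells, and 42.9% for Ebf3 in Purkinje-like cells. Thinned to 2000 UMIs they were 13.7% (Ebf2) and 25.4% (Ebf3) in newborn neuron-like, 73.8%, 29.3% and 49.9% in Purkinje-like, 67.9%, 11.96% and 28.1% for interneuron-like, 34.3%, 5.86% and 8.98% for progenitor-like cells, and 7.43% (Ebf2) and 15.4% (Ebf3) in all cells. Of the 5 genes most like Ebf1, 3 stayed with a pseudocount of 1 CPM, 0 with Spearman's rho and 1 over 17 clusters. For Ebf2 2 stayed with rho and 0 over 17 clusters, and for Ebf3 0 and 1. Single-cluster fits and the 17 clusters were chosen after seeing the data. Purkinje-like cells and the interaction were not run at 2000 UMIs or more or under the stricter filter, since control replicate 2 had under 20 such cells.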
